A study of Bos taurus with 21 samples.

Results

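Among 28054 Ensembl bovine transcript identifiers counted in heifer endometrium, 59 were higher on day 16 than on day 13 both in heifers without a conceptus and in heifers with one, and reached similar levels on day 16. They were chosen from measured values. Counts were scaled to the file total (counts per 1e6, CPM), and L is log2(CPM + 1). A member had a mean of at least 5 CPM over 20 heifers, which 13646 identifiers had. Its mean L was at least 0.7 higher on day 16 than on day 13 in cyclic heifers and at least 0.7 higher in pregnant heifers, and its pregnant minus cyclic difference on day 16 lay between -1 and 1. These 3 contrasts were used for the choice, so their values over the members are a description and no support for a change. The pregnant minus cyclic difference on day 13 is fixed by the same contrasts and is treated alike.

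The endometrium is the lining of the uterus, and in these days of the luteal phase it is under progesterone from the corpus luteum whether or not a conceptus is present. Progesterone changes the glands and the luminal epithelium, which secrete and transport the fluid that feeds the free-living conceptus before it attaches. The elongating bovine conceptus in turn secretes interferon tau, the signal by which the mother recognises the pregnancy. The rule, through its limit on day 16, sets the members apart from transcripts that differ more strongly between the states on that day. Whether progesterone or the conceptus had a part in the members' day differences was not tested.

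The heifers were cross-bred beef animals, mainly of Charolais and Limousin crosses, whose cycles had all been synchronised with a vaginal progesterone device and a prostaglandin F2α analog. Each of the 4 groups, cyclic or pregnant at either day, held 5 heifers. Cyclic heifers were not inseminated, and a pregnant heifer was used only if a conceptus of the proper stage was flushed from its uterus. Strips of mainly intercaruncular endometrium, from between the sites of placental attachment, were cut after slaughter from the uterine horn ipsilateral to the corpus luteum. These are bulk tissue strips, in which more cells of a type and more RNA per cell cannot be told apart.

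The identifiers are not paired with gene names in the files, and 0 of them matched the reference gene table used here. The functions of the members are therefore not given, the tissue was not checked against marker genes, and no sequences are shown. Only 2 identifiers are printed. The other members are called by their rank, from 1 to 59, in the order of the smaller of their 2 day differences. CPM depends on transcript length, which was not used here, so levels are compared between heifers and not between transcripts.

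Total counts ranged from 1256870 in pregnant day 16 heifer 1 to 3764342 in pregnant day 13 heifer 9. A floor of 3 counts came to between 0.797 and 2.39 CPM in these 2 libraries. Pregnant day 16 heifer 12 was sequenced as 2 libraries, of which the rule left out library 2. Its counts came nearest to those labelled heifer 19 (chi-square divided by its degrees of freedom 2.001, the smallest of 210 library pairs, the next being 3.30), while the 2 libraries labelled heifer 12 were pair 51 in this order at 6.85. The members' values are therefore also given with library 2.

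The members made up a minority of the transcripts that moved alike in both states. A mirror rule for transcripts lower on day 16 in both states, with the same limits, found 164. The members' day differences in L ran from 0.70 to 3.77 in cyclic heifers, with a median of 1.05, and from 0.72 to 3.42 in pregnant heifers, with a median of 1.11. Over all 13646 transcripts with at least 5 CPM the medians were 0.01 and -0.0003. A difference of at least 1 was present in 34 members in cyclic, in 36 in pregnant and in 24 in both states, and a difference of at least 2 in 5, 4 and 2 of them. Most members thus lay near the limit, as the plot of day differences shows. A smaller difference between 0.7 and 0.8 was found in 19 members, with medians of 0.78 in cyclic and 0.86 in pregnant heifers, and 40 transcripts lay just outside, between 0.6 and 0.7, with medians of 0.69 and 0.69. In both states, every day 16 heifer lay above every day 13 heifer for 0 of the 19 and 3 of the 40. The share over all transcripts with at least 5 CPM was 0.161%.

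**Figure D1:**
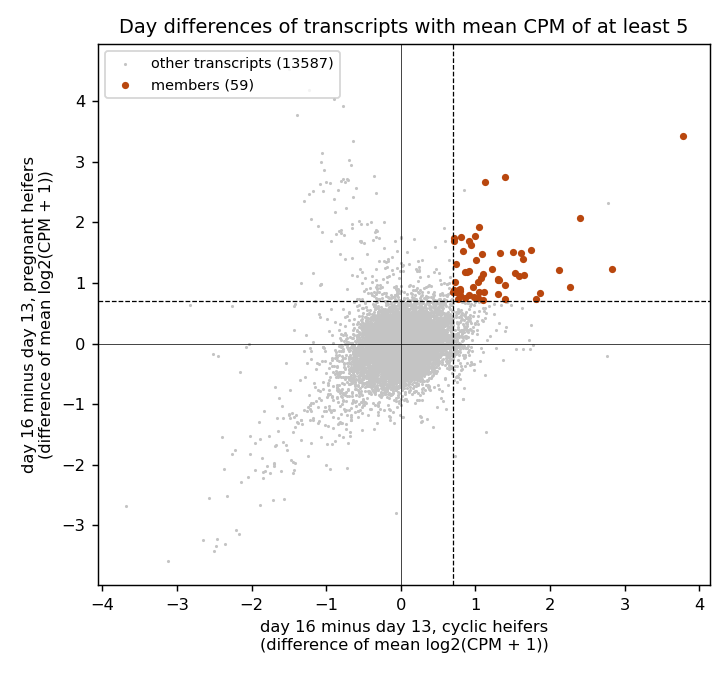
Difference of mean log2(CPM + 1) between day 16 and day 13 in cyclic heifers (x axis) and in pregnant heifers (y axis) for 13646 transcripts of at least 5 mean CPM; orange points are the 59 members and dashed lines mark 0.7. Most members lie within 1 unit of the dashed corner, and the member farthest out, at 3.77 and 3.42, is ENSBTAT00000004084.

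In the edgeR quasi-likelihood test, fitted to all 14826 transcripts that passed its filter on low counts, 20 of the 59 members were called higher on day 16 in cyclic heifers (Benjamini-Hochberg adjusted p under 0.05), beside 0.479% of all transcripts tested. In pregnant heifers 30 members were called higher, beside 1.85% of all. Both contrasts called 14 members, beside 0.128%, and neither called 23 of them. DESeq2 called 25 members in cyclic (1.03% of all), 40 in pregnant (2.64%) and 20 in both (0.216%), and limma voom called 18 (0.398%), 24 (1.77%) and 10 (0.0944%). All 59 had passed the filter, and the contrasts are those of the rule, so these counts say only how many of the chosen differences are large against the spread between heifers. Leaving out heifer 8 (cyclic day 13) gave 13 calls in cyclic heifers (0.254% of all transcripts) and leaving out heifer 3 (cyclic day 16) gave 12 (0.234%). Leaving out heifer 6 (pregnant day 16) gave 19 calls in pregnant heifers (1.10%). Both states together had 9 calls when heifer 10, 3, 2 or 19 was left out, 1 of each group (0.0735% to 0.0935%), and 8 when heifer 6 was left out (0.0801%).

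Between the states, edgeR called 0 members on day 16, beside 0.931% of all transcripts called higher and 0.0270% called lower in pregnant heifers. It called 0 on day 13, beside 0.00% in either direction. At an unadjusted p under 0.05 there were 6 members higher and 1 lower in pregnant heifers on day 16, and 1 higher and 1 lower on day 13. The difference between the day effects of the states was called for 0 members, beside 0.472% of all transcripts called higher and 0.00674% called lower. At an unadjusted p under 0.05 this difference was higher for 2 members and lower for 0. Shares of all transcripts at an unadjusted p under 0.05 are not given, so the unadjusted counts have nothing to be read against. DESeq2 and limma voom also called 0 members in these 3 contrasts. Of all transcripts, DESeq2 called 1.20% higher and 0.0540% lower on day 16, 0.00674% and 0.0135% on day 13, and 0.755% and 0.0877% for the difference between day effects. Limma voom called 0.965% and 0.0135%, 0.00% and 0.00%, and 0.459% and 0.00674%. The rule holds the pregnancy difference on day 16 between -1 and 1, so few calls could arise there.

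The heifers of the 2 days were separated completely in some members only. In 20 members the lowest cyclic day 16 heifer lay above the highest cyclic day 13 heifer, beside 1.64% of the transcripts with at least 5 CPM. In pregnant heifers this held for 23 members, beside 2.18%, and in both states for 9, beside 0.161% (22 transcripts, these members included). In 6 members, at ranks 1, 10, 20, 26, 34 and 38, all 10 day 16 heifers lay above all 10 day 13 heifers, beside 0.110%. At rank 1 this rested on 8 counts in pregnant day 16 heifer 1, against 11 in the larger library of cyclic day 13 heifer 13. At rank 10 the same heifer 1 had 14 counts, against 19 in the larger library of cyclic day 13 heifer 8. Ranks 20 and 38 shared reads, as described with the pairs, so the 9 members were 8 separate profiles and the 6 members 5. The remaining 25 members overlapped in both states. Without cyclic day 13 heifer 5, the heifer with the highest values in its group, 36 members were separated in cyclic heifers, beside 3.99% of all, and 15 in both states, beside 0.264%. Leaving out a heifer cannot lower a count of separated members. With library 2 in place of library 1 as heifer 12, 32 members were separated in pregnant heifers (2.95% of all) and 12 in both states (0.220%), and edgeR called 43 members in pregnant heifers (2.64%). If library 2 is of heifer 19, to which it came nearest, this setting counts heifer 19 again and leaves out heifer 12. With library 2 summed with heifer 19, 23 members were separated in pregnant heifers (2.37% of all) and 9 in both states (0.161%). EdgeR then called 30 members in pregnant heifers (2.06%).

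The largest day difference belonged to ENSBTAT00000004084, at rank 1, which was close to the counting floor on day 13 and present in every heifer on day 16. In cyclic day 13 heifers 10, 13, 18, 5 and 8 it had 0, 4.16, 0, 0.789 and 0.468 CPM. In cyclic day 16 heifers 15, 16, 17, 3 and 7 it had 18.1, 22.9, 41.4, 29.5 and 10.02 CPM. The lowest day 16 value was thus above the highest day 13 value, that of heifer 13, which stood apart from the other 4. In pregnant day 13 heifers 11, 14, 2, 20 and 9 it had 1.21, 1.16, 0, 0 and 1.33 CPM, and in pregnant day 16 heifers 1, 12, 19, 4 and 6 it had 6.37, 8.16, 14.4, 20.03 and 71.2 CPM. Heifer 6 was far above the other 4, and every pregnant day 16 heifer lay above every day 13 heifer. The group means were 1.08 ± 1.75 CPM (SD, n = 5) and 24.4 ± 11.9 CPM (n = 5) in cyclic heifers, a ratio of 22.5. In pregnant heifers they were 0.741 ± 0.679 CPM (n = 5) and 24.0 ± 26.9 CPM (n = 5), a ratio of 32.4. The day 13 groups held only 14 and 11 counts in all, against 324 and 278 on day 16, so the size of the ratio is loosely fixed. The edgeR log2 fold change was 4.43 (SE 0.83) in cyclic and 4.80 (SE 0.88) in pregnant heifers. It was 6.14 in cyclic heifers without heifer 13 and 3.84 in pregnant heifers without heifer 6. Library 2 of heifer 12 had 9.27 CPM.

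ENSBTAT00000002925, at rank 26, was the member with the most reads among those separated in both states. It had 102, 76.0, 59.6, 108 and 118 CPM in cyclic day 13 heifers 10, 13, 18, 5 and 8, and 227, 255, 189, 214 and 328 CPM in cyclic day 16 heifers 15, 16, 17, 3 and 7. In pregnant day 13 heifers 11, 14, 2, 20 and 9 it had 120, 57.8, 104, 97.3 and 167 CPM. Pregnant day 16 heifers 1, 12, 19, 4 and 6 had 219, 185, 200.4, 199 and 213 CPM and were the closest group. All day 16 heifers lay above all day 13 heifers, with pregnant day 13 heifer 9 nearest to the gap. The edgeR log2 fold change was 1.39 (SE 0.21) in cyclic and 0.91 (SE 0.21) in pregnant heifers. The latter was 0.76 without the heifers of file-name code A (described with the codes), where it was no longer called. Library 2 of heifer 12 had 208 CPM, within the range of the group.

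Ranks 2 and 6 were also separated in both states, with day differences in L of 2.40 and 1.64 in cyclic and 2.07 and 1.39 in pregnant heifers. At rank 2 the range was 0 to 2.27 CPM in cyclic day 13 and 2.73 to 18.4 CPM in cyclic day 16 heifers, with medians of 0.714 and 9.97. In pregnant heifers it had 0 to 2.91 CPM on day 13 and 3.98 to 21.9 CPM on day 16, with medians of 1.59 and 8.90. Its day 13 values rested on 0 to 7 counts in each library. In cyclic heifers the nearest values were 6 counts in day 16 heifer 7 and 6 counts in day 13 heifer 13. In pregnant heifers they were 5 counts in day 16 heifer 1 and 7 counts in day 13 heifer 20. The counts themselves thus did not separate the days at rank 2, and the gap in CPM came from the library totals. At rank 6 the values were 18.9, 37.0, 28.7, 52.9 and 27.6 CPM in cyclic day 13 heifers 10, 13, 18, 5 and 8, and 59.8, 77.1, 129, 104 and 156 CPM in cyclic day 16 heifers 15, 16, 17, 3 and 7. In pregnant heifers it had 20.2 to 40.6 CPM on day 13, while on day 16 heifers 12 and 1 had 41.2 and 50.1 CPM and heifers 4, 19 and 6 had 125, 130 and 154 CPM. The gap between days was therefore narrow in pregnant heifers and rested on heifer 12, whose value by library 1 was just above the highest day 13 value. Library 2 labelled heifer 12 had 134 CPM.

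**Figure D2:**
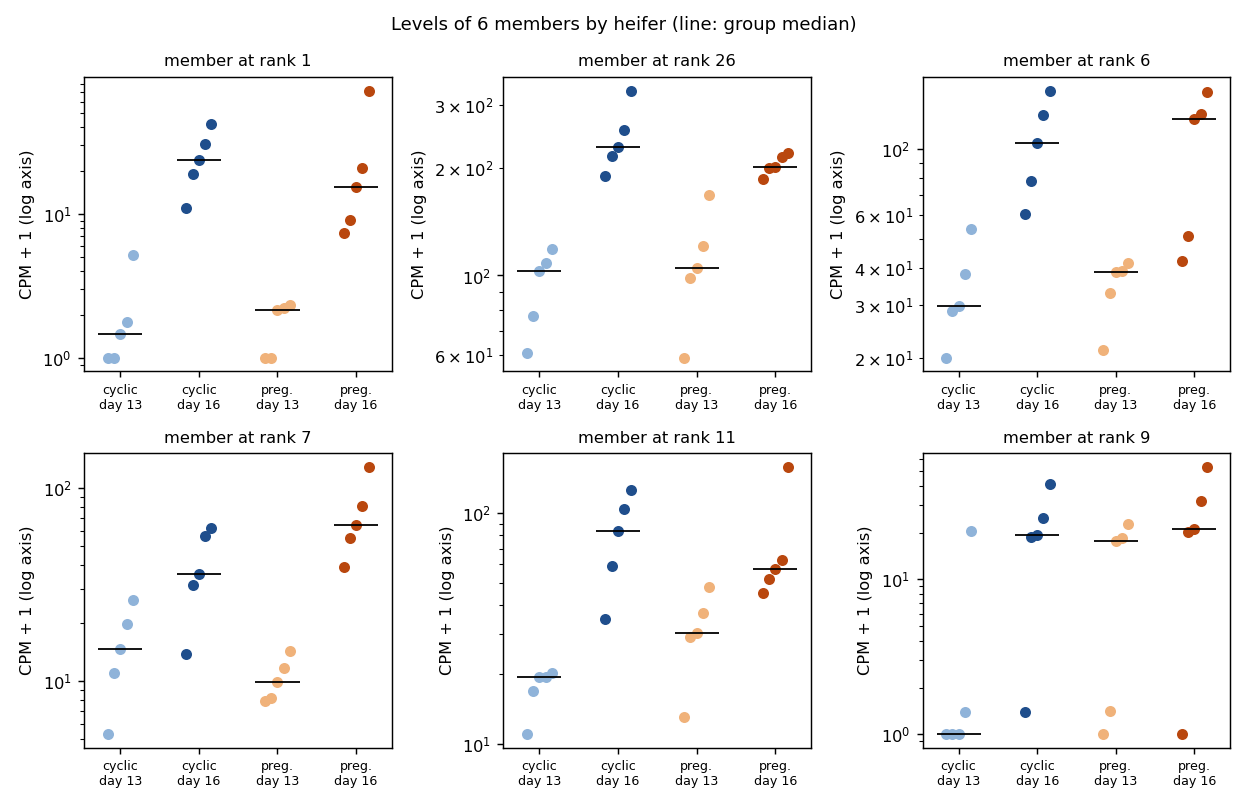
CPM + 1 on a log axis for 6 members, 1 point per heifer and a line at the group median, in 5 cyclic and 5 pregnant heifers at each day. Ranks 1, 26 and 6 are separated between days in both states, rank 7 is separated in pregnant and rank 11 in cyclic heifers only, and rank 9 is near 0 in some heifers of every group. The overlap of rank 11 in pregnant heifers rests on day 16 heifer 12.

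The day differences were uneven between the states in 18 members, counting those in which they differed by at least 0.5. They were larger in pregnant heifers in 11 members, with medians of 1.74 in pregnant and 0.92 in cyclic heifers, and larger in cyclic heifers in 7, with medians of 1.86 and 0.94. In the 11 the pregnant day 16 mean was above the cyclic one in 11 and the pregnant day 13 mean in 0, so both ends contributed. In the 7 the pregnant mean was above the cyclic one in 7 on day 13 and in 1 on day 16. The other 41 members had medians of 1.04 in cyclic and 1.02 in pregnant heifers. Ranks 56 and 58 among the 11, and ranks 37 and 49 among the 7, are pairs that shared reads, as described with the pairs. The 11 and the 7 therefore hold fewer separate profiles than members. None of the 18 was called for the difference between day effects, and these divisions are a description.

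The member at rank 7 had the largest day difference in pregnant heifers after rank 1, at 2.75 in L against 1.39 in cyclic heifers. It had 6.88, 8.92, 7.15, 13.3 and 10.6 CPM in pregnant day 13 heifers 11, 14, 2, 20 and 9, and 54.1, 63.2, 38.1, 79.7 and 128 CPM in pregnant day 16 heifers 1, 12, 19, 4 and 6. These groups did not overlap, and library 2 labelled heifer 12 had 40.7 CPM. In cyclic heifers it had 4.29 to 25.2 CPM on day 13 and 12.7 to 61.3 CPM on day 16, and the groups overlapped through cyclic day 16 heifer 7. Rank 14 was of the same kind, with 6.07 to 46.2 CPM on day 13 and 71.6 to 212 CPM on day 16 in pregnant heifers, against 11.2 to 80.5 and 30.5 to 158 CPM in cyclic heifers.

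The member at rank 11 showed the opposite inequality. It had 10, 18.5, 19.4, 18.5 and 15.9 CPM in cyclic day 13 heifers 10, 13, 18, 5 and 8, and 103, 33.9, 57.9, 83.0 and 125 CPM in cyclic day 16 heifers 15, 16, 17, 3 and 7. In pregnant heifers it was already at 12.02 to 46.6 CPM on day 13, and on day 16 it had 44.0 to 61.4 CPM in 4 heifers and 157 CPM in heifer 6. The cyclic groups were separated. The pregnant groups overlapped only through day 16 heifer 12, whose 44.0 CPM lay below the highest day 13 value of 46.6 CPM. Library 2 labelled heifer 12 had 67.8 CPM, above every pregnant day 13 heifer. The edgeR log2 fold changes were 2.29 (SE 0.41) in cyclic and 1.33 (SE 0.39) in pregnant heifers.

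The member at rank 9 met the rule without a steady level in any group. It had 19.6 CPM in cyclic day 13 heifer 10 and 0 to 0.394 CPM in the other 4. In cyclic day 16 heifers it had 17.8 to 40.1 CPM in 4 and 0.384 CPM in heifer 17. Pregnant day 13 heifers 14, 2 and 20 had 21.7, 16.69 and 17.5 CPM and heifers 11 and 9 had 0.405 and 0 CPM, while pregnant day 16 heifers 1, 12, 4 and 6 had 19.1, 20.2, 31.2 and 52.1 CPM and heifer 19 had 0. Heifers were thus either near 0 or at 16.69 CPM and above, on both days and in both states. In library 2 labelled heifer 12 it was at 0, as in heifer 19, whereas library 1 of heifer 12 held 20.2 CPM. Its spread within groups, an SD of 2.08 in L, was the largest of the members, and its day differences were 2.83 in cyclic and 1.23 in pregnant heifers. The heifers near 0 numbered 4 of 5, 1 of 5, 2 of 5 and 1 of 5 in the groups in the order given.

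Some identifiers among the members did not give separate measurements. After the group means were subtracted, 10 pairs of members had a Pearson correlation of L of at least 0.9 over the 20 heifers, from 0.910 to 0.999. In 9 of these pairs the ratio of the 2 counts varied so little across heifers that its chi-square over the degrees of freedom was between 0.0579 and 0.307. Separately sampled reads would give about 1, so in these 9 pairs the same reads had been counted for both identifiers at least in part. The tenth pair, at ranks 11 and 27, had 1.21. No pair had the same counts in every heifer. Counting each sharing pair as 1, the 59 members were 50 separate profiles, of which edgeR called 16 in cyclic heifers, 26 in pregnant heifers and 12 in both, while 20 were called in neither. Such sharing was as common elsewhere, since it involved 27.2% of the 13646 transcripts with at least 5 CPM and 32.2% of the members.

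The pairs that shared reads included members with many counts. The members at ranks 19 and 21 had 17977 and 20533 counts over the heifers and day differences of 1.30 and 1.32 in cyclic and 1.07 and 1.05 in pregnant heifers. The member at rank 19 had 124, 207, 154, 324 and 188 CPM in cyclic day 13 heifers 10, 13, 18, 5 and 8, and 376, 516, 523, 606 and 361 CPM in cyclic day 16 heifers 15, 16, 17, 3 and 7. In pregnant day 13 heifers 11, 14, 2, 20 and 9 it had 188, 323, 210.4, 214 and 199 CPM, and in pregnant day 16 heifers 1, 12, 19, 4 and 6 it had 272, 313, 454, 617 and 928 CPM. The cyclic groups were separated by the gap between heifers 5 and 7, and the pregnant groups overlapped through heifer 14 on day 13. The members at ranks 43 and 45, with 20029 and 23745 counts, had day differences of 0.79 and 0.77 in cyclic and 0.89 and 0.88 in pregnant heifers.

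**Figure D3:**
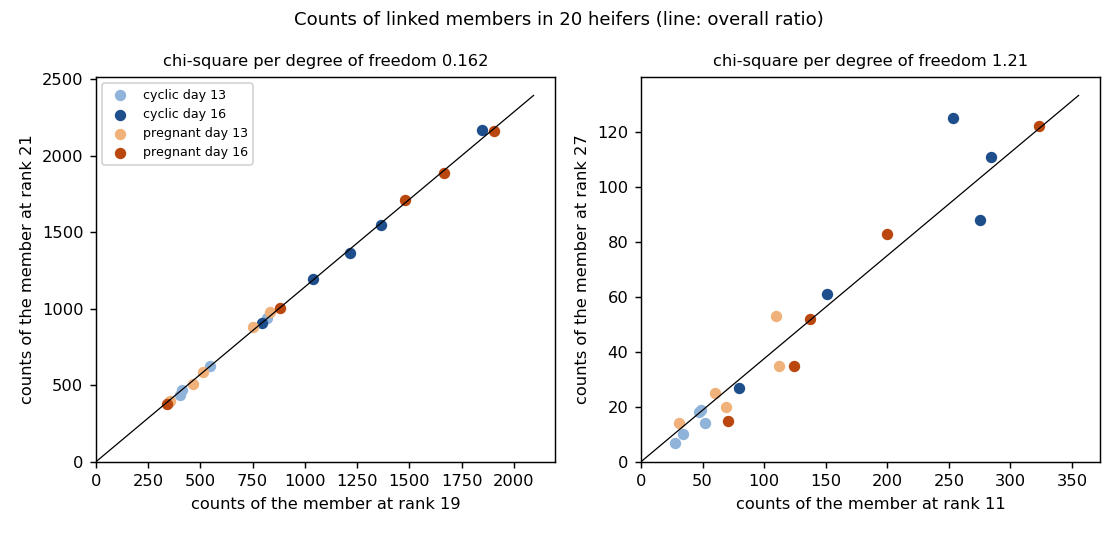
Counts of 1 member against another in each of 20 heifers, coloured by group, with a line at the overall ratio. The pair at ranks 19 and 21 lies on the line, where the chi-square over its degrees of freedom was 0.162, and the pair at ranks 11 and 27 scatters about it, at 1.21.

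Averaged over the 59 members, L in cyclic heifers was 4.12 ± 0.42 (SD, n = 5) at day 13 and 5.35 ± 0.19 (n = 5) at day 16. In pregnant heifers it was 4.15 ± 0.14 (n = 5) and 5.39 ± 0.42 (n = 5). No heifer overlapped between days, from 3.55 to 4.71 on day 13 and from 4.97 to 6.03 on day 16, which the choice of members favours. As a share of all counts, the members' sum in cyclic heifers was 0.310% ± 0.119 (SD, n = 5) at day 13 and 0.607% ± 0.0888 (n = 5) at day 16. In pregnant heifers it was 0.307% ± 0.0182 (n = 5) and 0.678% ± 0.217 (n = 5). By this share the days did overlap, since cyclic day 13 heifer 5 had 0.500%, against 0.484% in cyclic day 16 heifer 15 and 0.452% in pregnant day 16 heifer 12. The 10 members with the most reads held 68.8% of the members' CPM and so dominate the share.

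**Figure D4:**
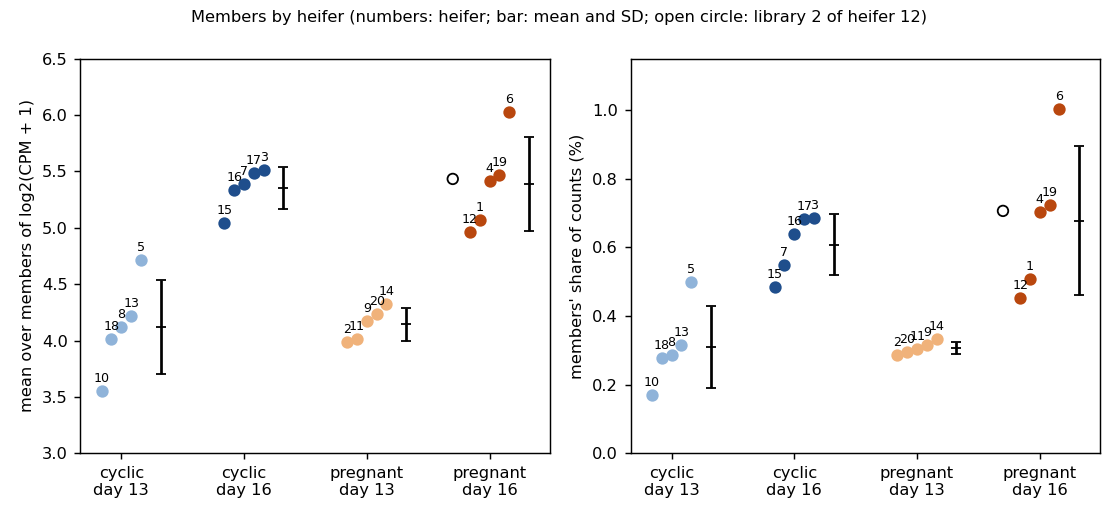
Mean over the 59 members of log2(CPM + 1) (left) and the members' share of all counts in percent (right), 1 point per heifer with its number, and a bar for the mean and SD of 5 heifers. On the left the day 13 heifers lie at or below 4.71 and the day 16 heifers at or above 4.97; on the right heifer 5 of the cyclic day 13 group overlaps the day 16 heifers. The open circle is library 2 labelled heifer 12, which chose no member.

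The same few heifers held the extremes of many members. In cyclic day 13 heifers, heifer 10 was lowest in 34 members and heifer 5 highest in 36. In cyclic day 16 heifers, heifer 15 was lowest in 28 and heifer 3 highest in 20. In pregnant day 13 heifers the extremes were spread more widely, with heifer 11 lowest in 20 and heifer 14 highest in 18, and in pregnant day 16 heifers, heifer 12 was lowest in 31 and heifer 6 highest in 38. Of the members, 55 were higher in heifer 6 than in every pregnant day 13 heifer, against 32 in heifer 12. Library 2 labelled heifer 12, which chose no member, lay above every pregnant day 13 heifer in 53 members, close to the 52 of heifer 19, so it is no separate check. Shares over all transcripts are not given for the counts of this paragraph. The choice of members by their day means favours transcripts that are high in day 16 heifers, so the counts are a description.

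**Figure D5:**
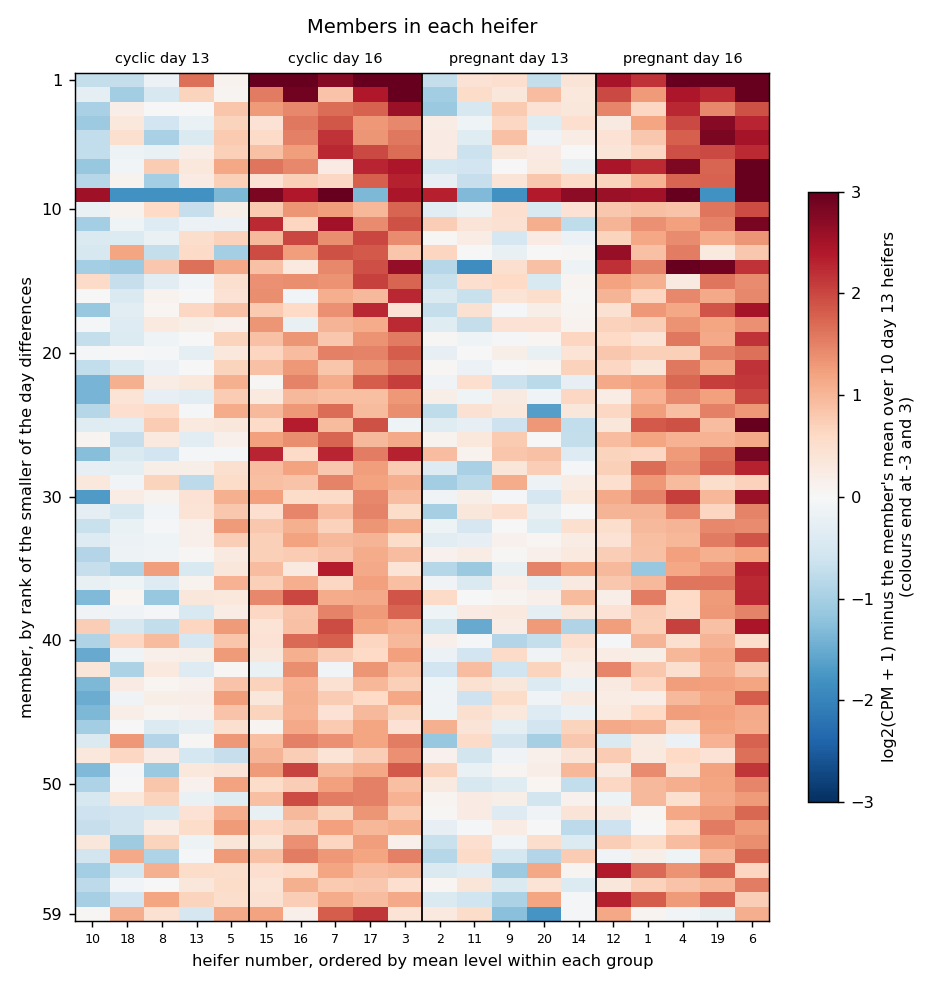
Each of the 59 members (rows, rank 1 at the top) in each of 20 heifers (columns, ordered within each group by the mean over members), coloured by log2(CPM + 1) minus the member's mean over the 10 day 13 heifers. Day 16 columns are mostly red in both states, heifer 10 is the bluest column and heifer 6 the reddest, and the row at rank 9 alternates between blue and red within groups.

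Within groups the members varied more than most transcripts and tended to vary together. Their SD of L within groups had a median of 0.63, against 0.30 over all transcripts with at least 5 CPM, and 58 of 59 exceeded the latter. Of the 1711 pairs of members, 78.4% had a positive correlation after the group means were subtracted, against 50.3% of all pairs of transcripts, and the median correlation was 0.30 against 0.003. These are descriptions over the same 20 libraries. They include the pairs that shared reads, and a rule on mean differences favours variable transcripts.

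The deposited file names share 1 of 4 numbers, called codes A to D here, whose meaning is not given in the labels. The heifers of code A were low in the members in 3 groups. Heifer 10 was the lowest of cyclic day 13, heifer 15 the lowest of cyclic day 16, and heifers 12 and 1 the lowest of pregnant day 16, whereas in pregnant day 13 heifer 11 was second lowest and heifer 14 highest. Within code A the members' median day difference in L was 1.43 in cyclic heifers (1 at each day) and 0.69 in pregnant heifers (2 at each day). It was 1.19 in cyclic heifers (1 at day 13, 3 at day 16) and 1.35 in pregnant heifers (1 and 2) of code C, and 1.30 in pregnant heifers of code B (2 and 1). Over all transcripts with at least 5 CPM these medians lay between -0.03 and 0.03. Between 55 and 58 of the 59 members were higher on day 16 in each of these 5 comparisons, beside 47.9% to 52.5% of all transcripts. A difference of at least 0.7 was present in 29 members in pregnant heifers of code A and in 49 to 56 in the other comparisons. Shares over all transcripts at this limit are not given. ENSBTAT00000004084 differed by 1.91 in pregnant heifers of code A and by 3.95 to 4.42 elsewhere. ENSBTAT00000002925 differed by 0.30 in pregnant heifers of code C and by 0.88 to 1.26 elsewhere. The members were chosen on these same heifers, so these values are a description and no separate check. In cyclic heifers code B held 3 heifers at day 13 and 0 at day 16, and code D held 0 and 1. Code and day can therefore not be fully told apart in cyclic heifers. With the code as a term in the edgeR model, 9 members were called in cyclic heifers (0.142% of all transcripts), 24 in pregnant heifers (1.39%) and 6 in both states (0.0472%). Without the code A heifers the rule found 121 members, 46 of them among the 59. The part of the code in these counts was not tested.

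A pair of transcripts met the limits on the day differences but not the limit on day 16. The first had day differences of 2.78 in cyclic and 2.32 in pregnant heifers and lay 1.05 lower in pregnant than in cyclic day 16 heifers, with 34.8 to 158 CPM in cyclic and 9.94 to 102 CPM in pregnant day 16 heifers. The second had day differences of 0.85 and 2.54 and lay 1.67 higher in pregnant day 16 heifers, where it ranged from 2.13 to 57.99 CPM. Among transcripts that were not members, the 5 whose L was most like that of ENSBTAT00000004084 over the 20 heifers had a Pearson r of 0.848 to 0.879. Their day differences were 0.36 to 2.78 in cyclic and 0.27 to 2.32 in pregnant heifers, and the largest of them was the first of the pair just described. For ENSBTAT00000002925 the 5 most alike had an r of 0.802 to 0.831 and smaller day differences, of 0.20 to 0.60 in cyclic and 0.21 to 0.71 in pregnant heifers.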

How the data were processed

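RNA of 20 heifers was sequenced as single-read Illumina libraries, per the labels' protocols. The authors deposited 21 files, 1 for each library, of raw counts of reads by transcript identifier. For software, the submitters' processing notes name CASAVA. The aligner, the counting program, the annotation, the genome build and the strand setting were not given in the sources used here. Groups came from the sample titles. Heifer 12 was represented by library 1. Whether separate heifers share other sources of variation is not given.

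Members were found by the rule in the text (Python 3.11.15, pandas 2.3.3). Contrasts were fitted with edgeR 4.0.16 in R 4.3.3 on all 20 heifers with 4 group means, TMM factors, robust quasi-likelihood and the filterByExpr filter (min.count 10, min.total.count 15). Adjusted p-values (Benjamini-Hochberg) were taken over all transcripts tested. The SE of a fold change was derived from its F statistic. The code was tested on simulated data. Alternatives were DESeq2 1.42.0, limma voom 3.58.1, RLE factors, no filter, the file-name code, other choices for heifer 12, other limits in the rule, and leaving out each heifer. Leaving out the code A heifers, the counts of separated members, the counts of members called in both contrasts and the limits for shared reads (correlation of at least 0.9, chi-square per degree of freedom under 0.5) were chosen after seeing the data.

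The members, and the other choices, were made with earlier results of these data known. Because no identifier had a symbol, the gene and marker lists were not used. The 2 identifiers printed are members separated between days in both states, the first with the largest smaller day difference and the second with the most reads. The other members described singly were chosen after their values were seen. Floors cover counting error only, since PCR copies of a molecule were not marked.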

Additional observations from a re-analysis of the deposited data

Results flagged for a closer look

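Of 44 sets of 5 heifers that were examined (the mean L, the share of counts and 9 members, each by group), 5 had a heifer far from the other 4. For unselected values chance gives about 1 in 20 sets, but these members were chosen after their values were seen and the sets share heifers, so the number found is not to be read against it. For ENSBTAT00000004084, at rank 1, cyclic day 13 heifer 13 had 4.16 CPM against 0 to 0.789 in the others, and pregnant day 16 heifer 6 had 71.2 CPM against 6.37 to 20.03. The same heifer 6 had 157 CPM of the member at rank 11, against 44.0 to 61.4. Cyclic day 13 heifer 10 had 19.6 CPM of the member at rank 9, against 0 to 0.394. Pregnant day 13 heifer 14 had 323 CPM of the member at rank 19, against 188 to 214.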

How the results depend on the processing

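The number of members was 59, and from 45 to 77 when each heifer was left out. It was 171 with a limit of 0.5 and 24 with a limit of 1 on the day differences, and 121 without the code A heifers. In cyclic heifers edgeR called 20 members (0.479% of all transcripts), and from 12 (0.234%) to 28 (0.888%) over the heifers left out. With the file-name code as a term 9 were called (0.142%). In pregnant heifers, 30 were called (1.85%), from 19 (1.10%) to 36 (1.94%) over the heifers left out and 24 (1.39%) with the code. Without the code A heifers, which left 3 pregnant heifers at each day, 46 members were separated in pregnant heifers (8.11% of all) and 21 in both states (0.909%), and the log2 fold change of ENSBTAT00000004084 in pregnant heifers was 5.73. The sum of both libraries of heifer 12, or library 2 alone, gave 71 members each, 58 and 55 of them shared with the 59. Library 2 summed with heifer 19 gave 60 members, of which 58 were shared. The median of L in place of the mean gave 76 members, of which 38 were shared. The members' median day differences stayed between 0.918 and 1.22 in cyclic and between 0.954 and 1.37 in pregnant heifers under 27 alternatives. All moves were smaller than the SD between heifers of the members' mean L, 0.317. That SD is of single heifers, pooled within groups, and is larger than the error of a difference between means of 5 heifers. It is therefore a loose measure of steadiness. The 59 members were held fixed and had been chosen on these contrasts, so this is no separate check. Leaving out a heifer of 1 state could not move the median of the other. The 3 contrasts with 0 members called had 0 under all 29 alternatives. No paired analysis was possible because the groups share no heifer numbers. Depth limits several members, among them ranks 1, 2 and 12, which had at most 11, 7 and 11 counts in any day 13 library. Their lowest counts in a day 16 library were 8, 5 and 8.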
